A study of Mus musculus with 2 samples.

Results

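Dectin-1, encoded by *Clec7a*, and 7 genes that carry its signal through Syk and Card9 were followed in myeloid cells of mouse colorectal polyps. The 8 genes were chosen by name: *Clec7a*, *Syk*, *Card9*, *Bcl10*, *Malt1*, *Plcg2*, *Prkcd* and *Vav1*. Of these, 7 were measured here among 32285 genes, and *Clec7a* was not analysed. The knockout could therefore not be checked on its own target, and the libraries are named by their labels. Polyps came from C57BL6/J mice aged 26 weeks, given azoxymethane (AOM, a carcinogen) and 3 cycles of 1% dextran sodium sulfate (DSS, which injures the colon lining), and were taken 16 weeks after AOM. Cells sorted on CD11b and CD11c made up 1 pooled library of 5 WT mice and 1 of 4 *Clec7a*-/- mice (KO), which had been backcrossed for 9 generations. Both genotypes received AOM and DSS, so neither library is an untreated control. With 1 library per genotype no test was possible, and each interval below is a 95% interval for counting error alone, which leaves out differences between mice and between preparations.

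Dectin-1 is a C-type lectin receptor of myeloid cells that binds beta-glucans of fungal walls. Its phosphorylated tail recruits the kinase Syk, which acts through phospholipase C gamma 2 (*Plcg2*), the kinase protein kinase C delta (*Prkcd*) and the guanine exchange factor Vav1 on the adaptor Card9. Card9 then assembles with Bcl10 and the protease Malt1 into a complex that turns on NF-kappaB. Most of these proteins also serve other receptors, so their transcripts are not particular to Dectin-1.

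The WT library held 15869215 UMIs (unique molecular identifiers, which count transcript copies) in 3467 barcodes, and the KO library 11808230 in 3080. With barcodes of 200 to 4000 genes and no more than 5% mitochondrial UMIs retained, 2696 WT cells with a median of 3412.5 UMIs and 1999 KO cells with a median of 2671 UMIs remained. The libraries shared 17 barcodes, 6 of them among the cells kept. The cells fell into 15 clusters, drawn without the member genes, and clusters were joined into classes by marker genes. In the WT and KO libraries, respectively, the neutrophil-like class had 498 and 99 cells, the monocyte-like class 398 and 273, and the monocyte-macrophage transitional-like class 318 and 210. The macrophage-like class had 528 and 296 cells, the DC-like class, made of 3 clusters, 360 and 565, and the T cell-like class 67 and 121. A cluster of 277 and 65 cells carried markers of neutrophils and of monocytes together and is called mixed, and a cluster of 176 and 302 shallow cells with medians of 1121.5 and 898.5 UMIs was left unnamed. T cell-like cells, and B or plasma, epithelial and mast cell-like clusters of 5 to 21 cells per library, were present in spite of the sort. At least 1 UMI of a member was found in 2529 of 2696 WT cells and 1707 of 1999 KO cells.

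*Syk*, the kinase that binds the phosphorylated receptor tail (chr13:52583173-52648792, plus strand, GRCm38), stepped down from the neutrophil-like class to the DC-like class in both libraries. In the WT library its level, in CPM (UMIs of the gene scaled to 1000000 UMIs of the same cells), was 526 (490.1–564) in neutrophil-like cells and 406 (371–445) in monocyte-like cells. It was 267 (242–294) in transitional-like, 211 (197–225) in macrophage-like and 122 (106–139) in DC-like cells. Each of these neighbours in the order differed beyond counting error. T cell-like cells were lowest at 74.2 (39.5–127), from 13 UMIs, which did not differ from the DC-like class beyond counting error. In the KO library the classes stood in the same order, at 502 (403–617), 359 (315–408), 294 (259–332), 211 (191–232), 128 (115–142) and 75.8 (45.0–119.9) CPM.

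CPM is a share of each class's own RNA, and the classes differed in RNA per cell. The median WT neutrophil-like cell held 2795.5 UMIs and the median macrophage-like cell 7911. Counted per cell, *Syk* was alike in both, with means of 1.60 and 1.70 UMIs, against 1.19 per monocyte-like cell and 0.622 per DC-like cell. With 1000 UMIs drawn from every cell (thinning), *Syk* was found in 40.5% (36.2–45.0%) of WT neutrophil-like cells and 32.9% (28.1–37.9%) of monocyte-like cells. Macrophage-like cells gave 17.3% (14.1–20.9%) and DC-like cells 12.3% (8.95–16.3%). T cell-like cells served as the background at 7.14% (1.98–17.3%), and the DC-like share overlapped it. Whether this class is free of *Syk* was not tested. The unthinned shares were 75.9%, 60.6%, 67.4%, 35.6% and 11.9% in the same order of classes, at median depths of 2795.5, 2836.5, 7911, 4253 and 2058 UMIs.

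*Vav1*, a guanine exchange factor that acts on small GTPases (chr17:57279100-57328031, plus strand), was also highest in the neutrophil-like class by CPM. Its WT level was 174 (153–196) CPM there and 121 (102–143) in monocyte-like cells. Transitional-like cells had 78.8 (65.6–94.0) and macrophage-like cells 71.6 (63.8–80.1) CPM, both below monocyte-like cells beyond counting error and not apart from each other. T cell-like cells had 91.4 (52.2–148) CPM, from 16 UMIs, which did not differ beyond counting error from any of these 3 classes. DC-like cells were lowest at 16.3 (11.0–23.3) CPM, from 30 UMIs in 360 cells. Counted per cell, *Vav1* was alike in WT neutrophil-like and macrophage-like cells, with means of 0.528 and 0.576 UMIs, against 0.0833 per DC-like cell. The cluster of DC-like cells in which all 6 mature DC markers were raised held 1 *Vav1* UMI in 42 WT cells and 2 in 96 KO cells. *Syk* was lowest among the DC-like clusters in these cells too, at 75.7 (46.9–116) CPM in the WT library and 36.1 (22.4–55.2) in the KO library. In the WT library this did not differ beyond counting error from the cluster with type 1 DC markers, at 121 (96.9–150) CPM. In the largest DC-like cluster, 5 of 6 mature DC markers and 3 of 4 type 2 DC markers were raised. *Syk* was at 138 (114–165) CPM there in the WT library and 185 (159–213) in the KO library, so low *Syk* was not shared by both clusters with mature DC markers. The unnamed shallow cluster, in which 8 of 12 neutrophil markers were raised, had *Vav1* at 236 (177–309) CPM and *Syk* at 508 (419–611) CPM in the WT library.

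The bases upstream of the starts of *Syk* and *Vav1* are shown because these members share the neutrophil-high, DC-low pattern of CPM. Each run is the 250 bases before a RefSeq transcript start on GRCm38.p6, 5′ to 3′ on the plus strand, with GAGGAA in capitals. GAGGAA holds the GGAA core that ETS family factors bind, among them PU.1 of myeloid cells.
Syk upstream start, chr13:52583187-52583436: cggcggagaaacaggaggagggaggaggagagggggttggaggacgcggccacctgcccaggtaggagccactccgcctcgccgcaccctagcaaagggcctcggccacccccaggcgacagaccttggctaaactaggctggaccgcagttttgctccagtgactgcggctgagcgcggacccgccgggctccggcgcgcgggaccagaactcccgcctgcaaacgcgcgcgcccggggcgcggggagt
Syk downstream start, chr13:52596632-52596881: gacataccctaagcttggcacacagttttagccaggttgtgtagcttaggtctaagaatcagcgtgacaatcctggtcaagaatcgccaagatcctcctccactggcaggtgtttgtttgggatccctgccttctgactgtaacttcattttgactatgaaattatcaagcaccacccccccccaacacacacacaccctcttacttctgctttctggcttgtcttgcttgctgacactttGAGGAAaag
Vav1, chr17:57278850-57279099: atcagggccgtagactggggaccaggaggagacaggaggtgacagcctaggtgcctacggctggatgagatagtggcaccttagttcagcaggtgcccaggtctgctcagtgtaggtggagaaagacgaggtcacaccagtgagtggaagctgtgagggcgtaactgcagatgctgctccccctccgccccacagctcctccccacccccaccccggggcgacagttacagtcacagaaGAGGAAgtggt

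GAGGAA, searched on both strands, began 9 bases before the downstream *Syk* start and 11 bases before the *Vav1* start, on the plus strand each time, and was not in the window of the upstream *Syk* start. Over all 32851 promoter windows of this length, 23.3% held it. Among the members, the windows of 7 genes were searched, with *Clec7a* and without *Malt1*. Of their 10 windows 4 held it, the other 2 being overlapping windows of *Clec7a* that hold the same site. The windows of *Bcl10*, *Card9*, *Plcg2* and *Prkcd* did not. A match is a run of letters and not a bound site.

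**Figure D1:**
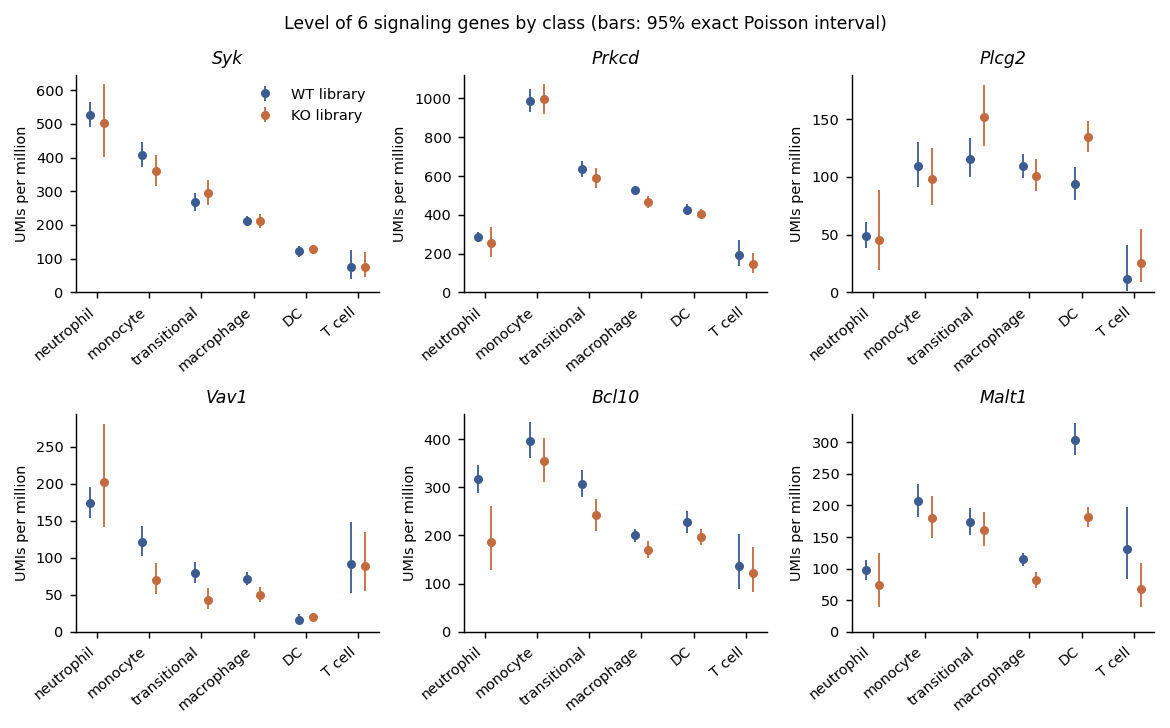
Level of 6 signaling genes (y axis, CPM) in 6 classes (x axis) of the WT library (blue) and the KO library (orange), with 95% exact Poisson intervals. *Syk* steps down from 526 in WT neutrophil-like cells to 122 in DC-like cells in parallel in both libraries. *Malt1* peaks in DC-like cells in the WT library, and the libraries stand apart in that class at 304 and 181.

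*Prkcd*, the kinase that phosphorylates Card9 (chr14:30595354-30626210, minus strand), followed another order, with monocyte-like cells on top. Its WT level was 988 (931–1046) CPM in monocyte-like, 635 (596–675) in transitional-like and 528 (506–550.2) in macrophage-like cells. DC-like cells had 427 (397–458), neutrophil-like cells 284 (258–313) and T cell-like cells 194 (134–271) CPM, and each neighbour differed beyond counting error. The step from DC-like down to neutrophil-like cells changed sign under another scaling (TMM, described with the class comparisons). The KO library gave the same order, from 996 (921–1075) CPM in monocyte-like to 147 (103–205) in T cell-like cells, again with each neighbour apart beyond counting error. After thinning, *Prkcd* was found in 55.7% (50.5–60.9%) of WT monocyte-like cells and 23.6% (19.9–27.6%) of neutrophil-like cells.

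*Plcg2* (chr8:117498291-117635142, plus strand) encodes the phospholipase that makes the second messengers for calcium release and protein kinase C. By CPM it was spread evenly over the mononuclear classes of the WT library. In the WT library it was 116 (99.5–134) CPM in transitional-like, 109.7 (91.6–130.5) in monocyte-like, 109 (99.3–119) in macrophage-like and 93.6 (80.1–109) in DC-like cells, and neighbours in this order did not differ beyond counting error. Counted per cell, the means of these classes ran from 0.322 UMIs in monocyte-like to 0.877 in macrophage-like cells. Neutrophil-like cells had 48.8 (38.3–61.3) CPM and T cell-like cells 11.4 (1.38–41.3), the latter from 2 UMIs. The KO library was less even, with 152 (127–180) CPM in transitional-like and 134 (121–148) in DC-like cells. KO macrophage-like cells had 101 (87.3–116) and monocyte-like cells 98.1 (75.7–125) CPM. DC-like over macrophage-like cells, the KO log2 ratio was 0.41 (0.16 to 0.67).

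*Bcl10*, the adaptor that Card9 nucleates into filaments (chr3:145922804-145934356, plus strand), was highest in WT monocyte-like cells at 397 (362–435) CPM. Neutrophil-like cells had 316 (288–346) and transitional-like cells 306 (279.7–335) CPM, which did not differ beyond counting error. DC-like cells had 227 (206–249.8), macrophage-like cells 199.9 (187–214) and T cell-like cells 137 (87.8–204) CPM.

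*Malt1*, the paracaspase partner of Bcl10, was highest in DC-like cells of the WT library, where *Syk* and *Vav1* were low. In the WT library DC-like cells led with 304 (279.5–331) CPM, followed by monocyte-like cells with 207 (181–234) and transitional-like cells with 174 (154–195). T cell-like cells had 131 (83.3–197), macrophage-like cells 114 (104–125) and neutrophil-like cells 97.0 (82.0–114) CPM. In the KO library DC-like cells did not lead, at 181 (166–198) CPM against 180 (149–215) in monocyte-like cells. The log2 ratio of these KO classes was 0.0076 (-0.28 to 0.31). Within the DC-like class, the WT levels were 352 (313–394) CPM in the largest cluster, 284 (247–327) in the cluster with type 1 DC markers and 209 (159–270.2) in the cluster with all 6 mature DC markers. The thinned share was 25.7% (21.1–30.8%) in WT DC-like cells and 7.26% (5.13–9.91%) in neutrophil-like cells, and unthinned these were 63.3% and 22.3%.

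*Card9*, the adaptor that links the kinases to Bcl10 and Malt1 (chr2:26352176-26360918, minus strand), was near the limit of detection, with 13 UMIs in the 2696 WT cells and 9 in the 1999 KO cells. Its level was 1.06 (0.564–1.81) CPM in the WT library and 1.19 (0.544–2.26) in the KO library. No class held more than 4 UMIs in a library, and its levels by class could not be told apart at this depth. Unthinned, 0.482% (0.257–0.823%) of WT cells and 0.450% (0.206–0.853%) of KO cells had a UMI. At 1000 UMIs per cell, 0 of 2510 WT cells had one, which allows a share of up to 0.120% at that depth, and 1 of 1692 KO cells did. Of T cell-like cells, 0 of 56 WT and 0 of 91 KO cells had one, which allows up to 5.36% and 3.30%.

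Between classes of the WT library, a gene was called if it differed by at least 1.5-fold with an interval clear of 0 on the log2 scale, provided that its UMIs in the 2 classes together reached 100. Monocyte-like over macrophage-like cells, 5 of 6 members tested were called higher, against 19.3% of the 5356 genes tested. Their log2 ratios were 0.99 (0.82 to 1.15) for *Bcl10*, 0.95 (0.78 to 1.11) for *Syk*, 0.90 (0.80 to 1.01) for *Prkcd*, 0.85 (0.62 to 1.08) for *Malt1* and 0.76 (0.46 to 1.05) for *Vav1*. *Plcg2* gave 0.014 (-0.28 to 0.30). The median log2 ratio was 0.88 over the 6 members and -0.02 over all genes tested. These ratios are relative to the total UMIs of each class, and counted per cell the order of the 5 called members turned round. Monocyte-like and macrophage-like cells held means of 1.16 and 1.61 UMIs for *Bcl10*, 1.19 and 1.70 for *Syk*, and 2.89 and 4.25 for *Prkcd*. The means were 0.606 and 0.920 for *Malt1* and 0.354 and 0.576 for *Vav1*, at median depths of 2836.5 and 7911 UMIs.

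Neutrophil-like over DC-like cells, *Syk* at 2.11 (1.89 to 2.33) and *Vav1* at 3.39 (2.86 to 4.01) were called higher, as were 26.1% of the 3738 genes tested. *Malt1* at -1.65 (-1.92 to -1.38) and *Plcg2* at -0.93 (-1.35 to -0.54) were called lower, as were 59.1% of the genes tested. This comparison turned on the scaling. The median log2 ratio over all genes was -1.18, and TMM scaling, which centres the bulk of genes, moved every ratio up by 1.15, so that 1508 genes were called higher and 1499 lower in place of 976 and 2211. Under TMM scaling *Syk*, *Vav1* and *Bcl10* were called higher, no member was called lower, *Malt1* stood at -0.50, *Plcg2* changed sign to 0.21, and *Prkcd* changed sign from -0.58 (-0.76 to -0.41) to 0.56. The steps of *Syk* and *Vav1* held under both scalings, and those of *Malt1*, *Plcg2* and *Prkcd* are relative to the total UMIs of each class.

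**Figure D2:**
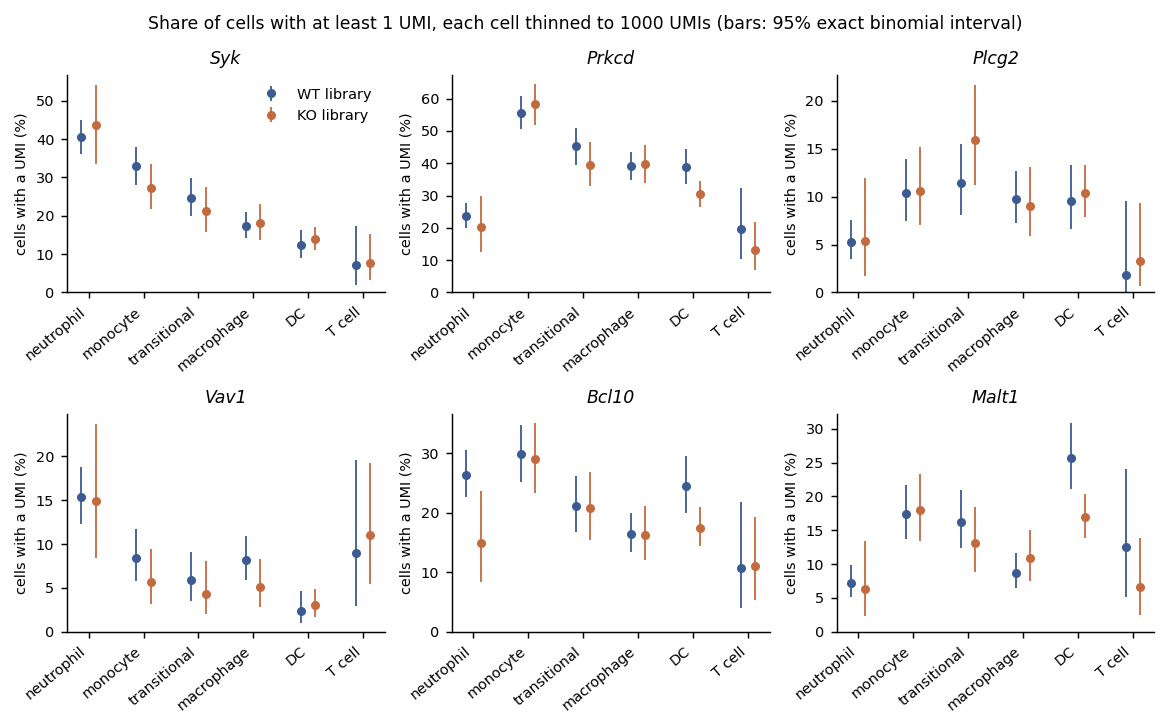
Share of cells with at least 1 UMI (y axis, percent) in 6 classes (x axis) of both libraries at 1000 UMIs drawn per cell, with 95% exact binomial intervals. *Syk* falls from 40.5% of WT neutrophil-like to 12.3% of DC-like cells, and *Malt1* differs between the libraries in DC-like cells, at 25.7% and 16.9%.

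The sort used CD11b and CD11c, encoded by *Itgam* and *Itgax*, and cells were also split by the UMIs of these genes and of *Itgae*, which encodes CD103 of intestinal DCs. In the WT library *Syk* was 369 (336–405) CPM in 400 cells with *Itgam* alone and 307 (294–319.6) in 1313 cells with both. It was 209 (191–228) in 531 cells with *Itgax* but not *Itgam*, and 130.4 (107–157) in 118 cells with *Itgae*, so that none of these intervals overlapped. *Vav1* gave 116 (97.8–137), 96.1 (89.2–104), 70.8 (60.8–82.1) and 27.7 (17.7–41.2) CPM in the same sets. *Malt1* was 192 (168–218), 134 (125–142), 216 (198–235) and 245 (213–279.9) CPM. Cells with *Itgax* but not *Itgam*, and cells with *Itgae*, thus held less *Syk* and *Vav1* than *Itgam* alone, and *Malt1* was lowest where both integrins were found. The *Itgae* set overlaps the others, a cell without a UMI of an integrin may still carry it, and the median depths of the 4 sets ran from 2802.5 to 6999.5 UMIs.

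Whether members were found in the same cells was described from *Syk*, since *Clec7a* was not analysed. Over all WT cells thinned to 1000 UMIs, *Vav1* was found in 11.2% (8.91% to 13.9%) of the 660 cells with *Syk* and 8.11% (6.90% to 9.45%) of the 1850 without. Within WT neutrophil-like cells the shares were 17.9% (12.9% to 23.9%) and 13.6% (9.87% to 18.0%), and within macrophage-like cells 8.05% and 8.17%, so that the intervals overlapped within both classes. In the KO library the intervals did not overlap, with *Vav1* in 10.5% (7.54% to 14.1%) of the 362 cells with *Syk* and 5.11% (3.99% to 6.44%) of the 1330 without. In KO neutrophil-like cells it was found in 29.3% (16.1% to 45.5%) of the 41 with *Syk* and 3.77% (0.460% to 13.0%) of the 53 without. In the other KO classes the intervals of *Vav1* overlapped. Its DC-like share ran the other way, at 1.35% with *Syk* and 3.28% without. In KO DC-like cells the intervals of *Malt1* did not overlap, at 29.7% (19.7% to 41.5%) of the 74 with *Syk* and 14.8% (11.7% to 18.4%) of the 458 without. In the other KO classes they overlapped. In WT DC-like cells they overlapped too, at 29.3% (16.1% to 45.5%) with *Syk* and 25.3% (20.4% to 30.6%) without. Each of the other measured members was compared in every named class of both libraries, and the pairs given here are a selection. *Syk* and *Malt1* stood at 185 and 244 CPM in the largest KO DC-like cluster. They stood at 36.1 and 107 CPM in the KO cluster with all 6 mature DC markers. The part of class and cluster mix in these shares was not tested. *Prkcd* was found in 37.6% of WT cells with *Syk* and 38.8% of those without, and *Bcl10* in 23.3% and 23.4%, also with overlapping intervals. *Bcl10* and *Malt1*, whose products bind each other, were found together in 7.78% (5.15% to 11.2%) of 334 WT DC-like cells and 1.81% (0.833% to 3.42%) of 496 WT neutrophil-like cells. In the KO library the DC-like share was 3.95% (2.46% to 5.97%) of 532 cells.

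Across the 15 WT clusters, the pattern of *Syk* was most like those of *Atp6v0c* and *Cxcl2*, each with a Pearson r of 0.95 in log2(CPM + 10) among 5640 genes with at least 200 WT UMIs. *Malt1* was most like *Nfkbib* (r = 0.91), an inhibitor of NF-kappaB, *Vav1* most like *Ski* (r = 0.93), and *Prkcd* most like *Inhba* (r = 0.88). Among the members, *Syk* was closest to *Bcl10* (r = 0.75) and far from *Malt1* (r = 0.10). These are descriptions over 15 clusters of 1 library, which share its depth and preparation. Each cluster counted alike, down to the B or plasma cell-like cluster of 11 WT cells, where *Vav1* had 1 UMI.

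Set KO over WT across all cells kept, the members differed little except *Vav1*. *Vav1* was 88.2 (83.0–93.6) CPM in the WT library and 50.5 (45.6–55.9) in the KO library, a log2 ratio of -0.80 (-0.98 to -0.63), and it was the single member of 6 called lower, against 5.69% of 8470 genes. The mean over cells of each cell's CPM gave -0.57, under 1.5-fold, so that the call was lost. No member was called higher, against 10.2% of the genes. *Syk* was 280.1 (271–289.7) and 221 (211–232) CPM, a log2 ratio of -0.34 (-0.42 to -0.25). *Bcl10* gave -0.35 (-0.44 to -0.26), *Malt1* -0.26 (-0.37 to -0.15) and *Prkcd* -0.17 (-0.23 to -0.12), all lower beyond counting error but by less than 1.5-fold. *Plcg2* was higher, at 0.25 (0.12 to 0.38), and *Card9* did not differ beyond counting error, at 0.19 (-1.24 to 1.51). The median log2 ratio was -0.30 over the 6 members tested and 0.13 over all genes tested. TMM scaling lowered every ratio by 0.17 and turned the split of calls from 866 higher and 482 lower to 486 and 794, with *Vav1* again the single member called.

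The libraries held different mixes of cells, with 12.3% of WT and 2.35% of KO UMIs in neutrophil-like cells and 14.96% and 37.3% in DC-like cells. Of the *Syk* UMIs, 23.2% came from neutrophil-like cells in the WT library and 5.32% in the KO library, and 6.51% and 21.6% from DC-like cells. The unnamed shallow cluster, in which 8 of 12 neutrophil markers were raised, ran the other way from the neutrophil-like class. It held 1.83% of WT and 3.94% of KO UMIs, and 3.31% and 10.0% of the *Syk* UMIs. When the 15 clusters of the KO library were weighted by their WT shares of UMIs, an alternative added after the data were seen, the log2 ratio of *Syk* went from -0.34 to 0.030 and that of *Vav1* from -0.80 to -0.26. *Malt1* went the other way, from -0.26 to -0.48. *Bcl10* stood at -0.28, *Prkcd* at -0.12 and *Plcg2* at 0.10. No interval was computed for these weighted ratios. The KO neutrophil-like and mixed clusters, whose weight this raised, held 36 and 19 *Vav1* UMIs.

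**Figure D3:**
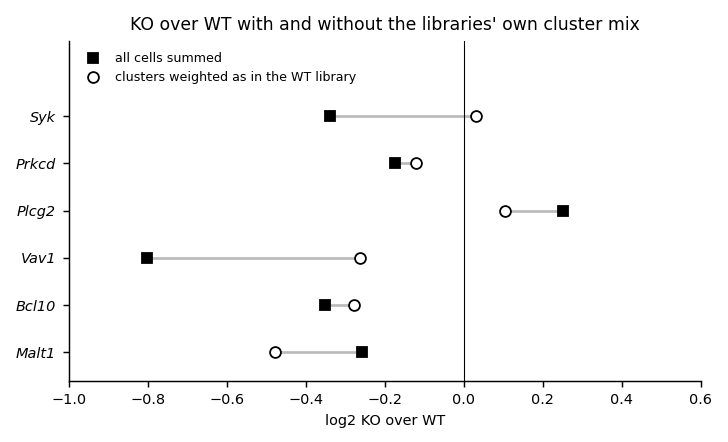
Log2 ratio of KO over WT (x axis) for 6 genes (y axis), from all cells summed (filled squares) and with the KO clusters weighted by their share of UMIs in the WT library (open circles). The ratio of *Syk* moves from -0.34 to 0.030, that of *Vav1* from -0.80 to -0.26 and that of *Malt1* from -0.26 to -0.48. No intervals are drawn.

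Within classes, *Syk* did not differ between the libraries beyond counting error in any of the 6 named classes. Its log2 ratios were -0.061 (-0.40 to 0.25) in neutrophil-like, -0.18 (-0.41 to 0.049) in monocyte-like, 0.14 (-0.091 to 0.37) in transitional-like, 0.0017 (-0.17 to 0.17) in macrophage-like, 0.071 (-0.17 to 0.32) in DC-like and 0.016 (-1.08 to 1.18) in T cell-like cells. In the macrophage-like class the level was 211 CPM in both libraries. The DC-like clusters did not move alike. The cluster with all 6 mature DC markers, with 21 *Syk* UMIs in each library, had a log2 ratio of -1.07 (-2.01 to -0.12), on too few UMIs to be called. The largest DC-like cluster went the other way, at 0.42 (0.083 to 0.77) from 117 and 188 UMIs, beyond counting error but under 1.5-fold. The cluster with type 1 DC markers gave 0.041 (-0.35 to 0.44).

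*Vav1* was lower in the KO library in 3 mononuclear classes, and did not differ beyond counting error in neutrophil-like cells. In monocyte-like cells it was 121 (102–143) CPM in the WT library and 69.4 (50.8–92.6) in the KO library, a log2 ratio of -0.79 (-1.31 to -0.31), called lower as were 3.89% of 2727 genes. In transitional-like cells it was 78.8 (65.6–94.0) and 43.3 (30.6–59.4) CPM, a log2 ratio of -0.85 (-1.43 to -0.33), called lower as were 4.27% of 3392 genes. In macrophage-like cells the ratio was -0.51 (-0.85 to -0.18), beyond counting error but under 1.5-fold, and 0 of 6 members were called lower in that class against 2.92% of 5781 genes. Neutrophil-like cells gave 0.24 (-0.32 to 0.73), from 263 and 36 UMIs, and DC-like cells 0.27 (-0.38 to 0.98). The difference between these ratios was not tested. The thinned shares in monocyte-like cells were 8.42% (5.80–11.7%) in the WT library and 5.71% (3.16–9.40%) in the KO library, which overlapped.

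Neutrophil markers moved the same way as *Vav1* in these classes. The summed level of the 12 listed markers in monocyte-like cells was 1822 CPM in the WT library, with all 12 detected, and 1189 in the KO library, with 11 detected. In transitional-like cells it was 5953 and 3638, and in macrophage-like cells 2135 and 1505 CPM, against 50079 and 44243 in the neutrophil-like class itself. DC-like cells held the list at 2034 and 1239.6 CPM, while *Vav1* was at 16.3 and 19.9 CPM there. The sums were not alike in make-up. The highest single marker was at 1087 and 980 CPM in DC-like cells, and at 628 and 631 in macrophage-like cells. The part of neutrophil transcripts in the *Vav1* difference was not tested.

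*Malt1* was the single member called lower in KO DC-like cells, at 304 (279.5–331) CPM in the WT library and 181 (166–198) in the KO library. The log2 ratio was -0.75 (-0.92 to -0.57), called lower as were 3.07% of 4857 genes. It was lower in each of the 3 DC-like clusters, by -0.52 (-0.77 to -0.28) in the largest, -0.80 (-1.09 to -0.51) in the cluster with type 1 DC markers and -0.97 (-1.51 to -0.43) in the cluster with all 6 mature DC markers. The share of thinned DC-like cells with *Malt1* was 25.7% (21.1–30.8%) in the WT library and 16.9% (13.8–20.4%) in the KO library. Macrophage-like cells gave -0.49 (-0.76 to -0.24) by CPM, and their thinned shares of 8.75% (6.43–11.6%) and 10.8% (7.43–15.1%) ran the other way, so no order is read from them. The ratio was below 0 in 6 of 6 named classes for *Malt1*, and in 2 of them beyond counting error.

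*Bcl10* was likewise below 0 in 6 of 6 named classes and beyond counting error in 4. It was called lower in neutrophil-like cells alone, at 316 (288–346) CPM in the WT library and 186 (128–261) in the KO library, a log2 ratio of -0.75 (-1.32 to -0.26) that rested on 33 KO UMIs, where 6.57% of 1750 genes were called lower. A pseudocount of 5 UMIs gave -0.577 there, under 1.5-fold, so that the call was lost. Under TMM scaling *Bcl10* was still called there, at -0.98, but 291 of the 1750 genes were called lower in place of 115. The other ratios beyond counting error were -0.34 (-0.58 to -0.11) in transitional-like, -0.23 (-0.42 to -0.051) in macrophage-like and -0.21 (-0.39 to -0.019) in DC-like cells. *Plcg2* was higher in KO DC-like cells, at 93.6 (80.1–109) and 134 (121–148) CPM, a log2 ratio of 0.52 (0.26 to 0.79), and in transitional-like cells, at 0.39 (0.055 to 0.72). Neither reached 1.5-fold, and 0 of 5 members tested in DC-like cells were called higher, against 3.15% of the genes. Of the DC-like clusters, the one with type 1 DC markers reached it, at 0.70 (0.30 to 1.13). *Prkcd* differed beyond counting error in macrophage-like cells, at -0.18 (-0.29 to -0.070), and in the unnamed shallow cluster, where it was 388 (311–479) CPM in the WT library and 205 (157–263) in the KO library.

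**Figure D4:**
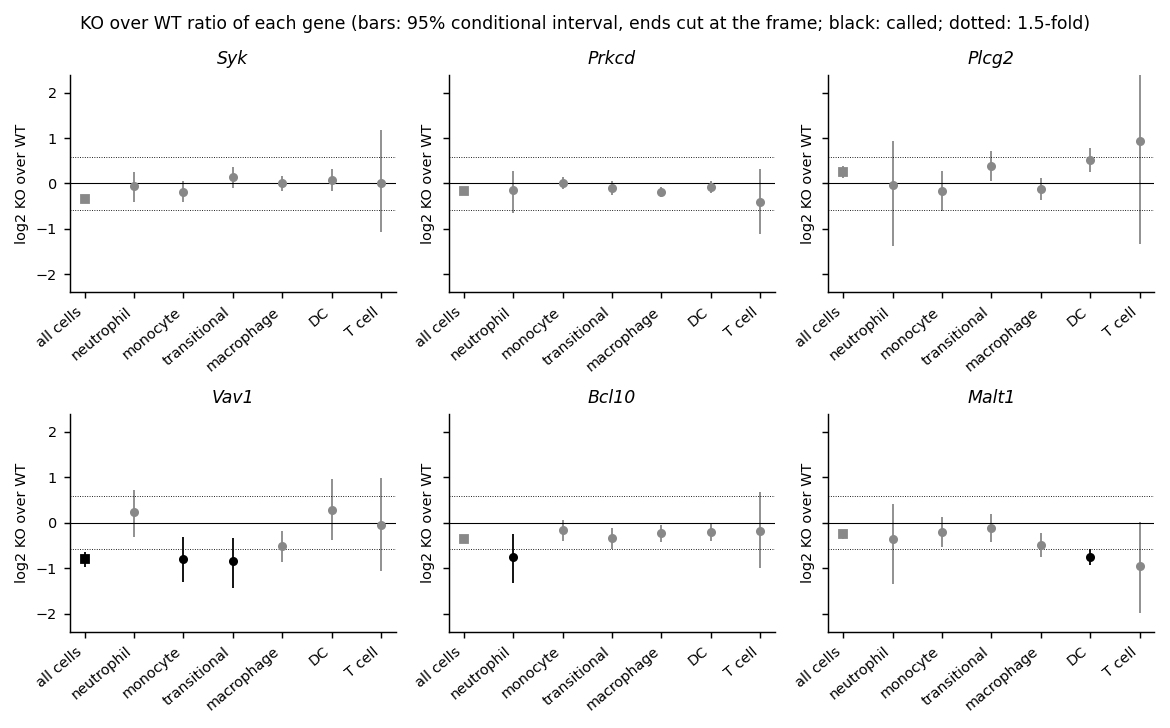
Log2 ratio of KO over WT (y axis) over all cells (square) and in 6 classes (circles) for 6 genes, with 95% conditional intervals that end at the frame, called ratios in black and dotted lines at 1.5-fold. *Syk* lies about 0 in every class, *Vav1* is called in monocyte-like and transitional-like cells at -0.79 and -0.85, *Malt1* in DC-like cells at -0.75 and *Bcl10* in neutrophil-like cells at -0.75.

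The rest of the Dectin-1 pathway was read from a list of 66 genes, of which 62 passed 100 UMIs over both libraries. The list and its targets were chosen with earlier results of these data known. Counts from it, here and below, are therefore descriptions and not independent support. Over all cells, 5 were called higher in the KO library, where 10.2% of all genes tested were, and 12 lower, against 5.69%, with a median log2 ratio of 0.06. Of the 12 listed targets tested, 7 were called lower and 1 higher, with a median of -0.93. Past 1 on the log2 scale, *Tnf* was at -1.37 (-1.48 to -1.26), *Cxcl2*, a neutrophil-attracting chemokine, at -1.30 (-1.33 to -1.28), *Il23a* at -1.24 (-1.69 to -0.84) and *Il10* at -1.04 (-1.26 to -0.84). *Ptgs2*, which encodes the inducible cyclooxygenase, was at -1.09 (-1.19 to -1.001) and the inflammasome sensor *Nlrp3* at -1.07 (-1.11 to -1.03). *Il1b* at -0.82 (-0.85 to -0.78) was the other target called lower, and *Il6* at 0.93 (0.72 to 1.15) the one called higher. Among the upstream genes, the Src family kinase *Fgr* was at -1.19 (-1.34 to -1.04). The median was 0.14 over the 12 genes of the NF-kappaB and MAPK arm and 0.13 over the 5 tested of the calcium and NFAT arm, against 0.13 over all genes tested. TMM scaling gave 3 higher and 15 lower.

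With KO clusters weighted by their WT shares of UMIs, all 7 targets called lower remained below 0, and 5 of them lay below -0.5. These 7 genes, and the other called genes below, were picked by calls on the same counts. The share of all genes was not computed under this weighting, so no background stands beside these numbers. *Tnf* moved to -0.70, *Cxcl2* to -0.74, *Il23a* to -1.17, *Il10* to -0.82, *Ptgs2* to -0.71, *Nlrp3* to -0.41 and *Il1b* to -0.49. Of the 5 other genes called lower, 4 remained below 0 and none below -0.5, with *Fgr* at -0.42. Of the 5 genes called higher, *Il6* moved to 0.12, *Pik3cd* to 0.18 and *Pik3r1* to 0.076, and *Fyn* at -0.20 and *Cblb* at -0.31 turned below 0. *Il12b*, a subunit of IL-12 and IL-23 named here after its values were seen, went from 0.26 over all cells to -1.23.

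**Figure D5:**
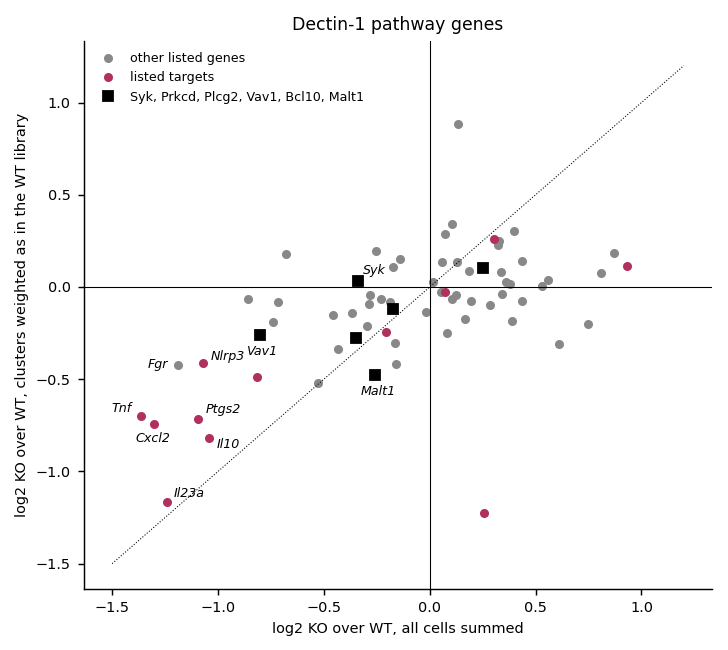
Log2 ratio of KO over WT for pathway genes, from all cells summed (x axis) and with KO clusters weighted as in the WT library (y axis), with listed targets in red, other listed genes in grey and members as black squares. The dotted line marks equal values. The 7 labelled genes past 1 lie at lower left, with *Tnf* at -1.37 and -0.70, and *Syk* lies near 0 on the y axis.

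Between classes of the WT library, 42 genes of the list were tested neutrophil-like over DC-like. Of these, 20 were called higher in neutrophil-like cells, where 26.1% of all genes tested were, and 20 in DC-like cells, against 59.1%. Genes around Syk were split. Of the 8 tested adaptors and kinases at Syk, 3 were higher in neutrophil-like cells, among them *Lcp2* at 4.46 and *Btk* at 1.43 on the log2 scale, and 5 in DC-like cells, among them *Pik3r1* at -3.15 and *Vav3* at -1.87. Of the 4 tested Src family kinases, 3 were higher in neutrophil-like cells, among them *Fgr* at 3.85 and *Lyn* at 1.09, and *Fyn* was higher in DC-like cells, at -5.93. The 7 tested genes of the NF-kappaB and MAPK arm were all higher in DC-like cells. Under TMM scaling 22 genes of the list were higher in neutrophil-like and 13 in DC-like cells. The 7 genes around Syk named so far were called in the same direction under both scalings. *Pik3cd*, *Pik3cg* and *Akt1*, the other adaptors and kinases at Syk higher in DC-like cells, were no longer called. Of the NF-kappaB and MAPK arm *Traf6*, *Ikbkb*, *Rel* and *Chuk* were among those that remained higher in DC-like cells, whereas *Nfkb1* and *Rela* were no longer called.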

How the data were processed

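For each library the authors deposited whole-number UMI counts per gene and barcode, without normalization. The submitters' processing notes name Cell Ranger 2.1.1 and mm10. The protocol names the SeekOne MM kit, which captures cells in microwells, and the sample description another platform. The annotation used for counting is not given in the sources used here, and positions are from GENCODE M21 (GRCm38).

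The member genes, the marker and pathway lists and the tests were chosen with earlier results of these data known. Cells were clustered in R 4.3.3 with Seurat 5.3.0 (LogNormalize to 10000, 2000 variable features without members and pathway genes, 20 principal components, resolution 0.7, the smallest with at least 15 clusters). A marker was raised at 2-fold over the other clusters with at least 20 UMIs, and a class needed 3 raised markers. No doublets were removed, as in the methods: Scrublet in scanpy 1.11.5 marked 2 WT and 8 KO cells, too few to count as a working call. The log2 ratios carry a pseudocount of 0.5 UMI. Intervals are exact Poisson for levels, Clopper-Pearson for shares and conditional binomial for ratios, and a count of 0 allows 3 counts. Thinning used random seed 1. TMM factors came from edgeR 4.0.16, and tables from Python 3.11.15, numpy 2.4.6, scipy 1.17.1 and pandas 2.3.3. The ratio and the call rule were tested on simulated data. Likeness to a gene's pattern had been set for *Clec7a* and was applied to the members, as was the class comparison. Named besides members are markers, pathway genes past 1 on the log2 scale and the genes most like a member; other pathway genes were named after their values were seen. Alternatives tried are given in the closing section.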

Additional observations from a re-analysis of the deposited data

How the results depend on the processing

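The planned comparison of *Clec7a* between classes could not be computed, so its alternatives were applied to the other members after the data were seen. No paired analysis was possible because each genotype had 1 library. Over all cells, 50 of 63 log2 ratios of KO over WT under an alternative stayed within the interval of the reported ratio. TMM scaling gave -0.51 for *Syk*, -0.52 for *Bcl10*, -0.42 for *Malt1*, 0.085 for *Plcg2* and -0.34 for *Prkcd*. A mean over cells of CPM gave -0.16 for *Syk* and -0.57 for *Vav1*, the latter under 1.5-fold. The WT shares of UMIs by cluster gave 0.030 for *Syk*, -0.48 for *Malt1*, 0.10 for *Plcg2* and -0.26 for *Vav1*, under 1.5-fold. *Prkcd* was -0.24 with a limit of 10% on mitochondrial UMIs and -0.27 with no filter on cells. Within classes, alternatives were run for chosen pairs of a gene and a class only, 12 for each pair. All 120 log2 ratios stayed within the reported interval. With a pseudocount of 5 UMIs *Bcl10* in neutrophil-like cells gave -0.577, under 1.5-fold, so that its call was lost. Between classes of the WT library, TMM scaling moved neutrophil-like over DC-like to 3.25 for *Syk*, 4.53 for *Vav1* and -0.50 for *Malt1*, from 0.48 to 1.62 for *Bcl10*, and changed the sign of *Plcg2* to 0.21 and of *Prkcd* from -0.58 to 0.56. Monocyte-like over macrophage-like *Prkcd* was 0.73 with the 10% limit and 0.79 with 500 to 6000 detected genes. Thinned to 2000 UMIs and not thinned, respectively, *Syk* was found in 62.4% and 75.9% of WT neutrophil-like and 19.4% and 35.6% of WT DC-like cells. *Vav1* was found in 18.2% and 27.9% of WT and 14.8% and 14.7% of KO monocyte-like cells, and *Malt1* in 45.2% and 63.3% of WT and 25.9% and 48.0% of KO DC-like cells. Within a cell, drawing more UMIs can only raise detection. Cells with fewer UMIs than the number drawn were left out, so the sets of cells differ between settings. A minimum of 20 UMIs called 1418 genes higher in the KO library over all cells in place of 866. The cause of the other shifts was not tested. Depth limits *Card9* in every class and the neutrophil-like KO values, which rest on 177430 UMIs.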
